A study of Mus musculus with 12 samples.

Results

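The neuroligins, neurexins and contactin-related adhesion genes described here are 9 genes, Nlgn1, Nlgn2, Nlgn3, Nrxn2, Nrxn3, Cntn1, Cntnap2, Nrcam and Ncam1, taken by exact gene symbol from a table of 45777 genes. All 9 were in the table and all 9 passed the filter on low counts that left 19163 genes for testing. Their levels were measured by bulk RNA sequencing of astrocytes purified from the cortex of mouse pups on postnatal day 14, in 4 groups of 3 libraries. In AGR cKO ESD pups both alleles of the glucocorticoid receptor gene Nr3c1 were floxed, the Aldh1l1-CreERT2 transgene supplied a recombinase under an astrocyte promoter that works only after tamoxifen, and the pups were kept from their mother for 3 hours daily, on days 1 to 14. AGR cKO control pups had the same alleles without the separation. Cre- ESD pups were floxed without the transgene and were separated in the same way, and Cre- control pups were floxed and not separated. All 4 groups, the controls included, received 4-hydroxytamoxifen on days 5 to 7. The comparisons ask how loss of the receptor, daily separation (ESD, the early life stress of the study) and their combination relate to the levels of these genes.

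Neuroligins are cell-surface proteins that bind neurexins across the synaptic cleft, and the pair helps to set which kind of synapse forms. In mice, astrocytes make neuroligins too, and contact between astrocyte neuroligins and neuronal neurexins shapes the branching of the astrocyte. Contactins, contactin-associated proteins, Nrcam and Ncam1 are adhesion molecules of axons, nodes of Ranvier and synapses, and Nrcam and Ncam1 are also made by astrocytes. The glucocorticoid receptor is a transcription factor that binds DNA when it holds corticosterone, the stress hormone of the mouse.

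Cntnap2, Cntn1 and Nlgn2 have more than 1 annotated transcription start, and the results below turn on these genes. The sequences before some of these starts are therefore shown, from RefSeq for build GRCm38.p6, 5′ to 3′ on the strand of the gene. Each ends at the last base before the outermost annotated start of its group, with CpG dinucleotides in capitals. Sequences before the other starts are not shown, among them the inner Nlgn2 start at chr11 position 69834849. The first is at chr6:45059811-45060060 (plus strand), before the start of full-length Cntnap2. The second is at chr6:47244146-47244373 (plus strand), inside the intron between exons 21 and 22 of the full-length gene and before a start that lies 2184 kb further along. The third is at chr15:92050915-92051151 (plus strand), before the upstream start of Cntn1, and the fourth at chr11:69837785-69838034 (minus strand), before the outer start of Nlgn2.
Cntnap2 full-length start: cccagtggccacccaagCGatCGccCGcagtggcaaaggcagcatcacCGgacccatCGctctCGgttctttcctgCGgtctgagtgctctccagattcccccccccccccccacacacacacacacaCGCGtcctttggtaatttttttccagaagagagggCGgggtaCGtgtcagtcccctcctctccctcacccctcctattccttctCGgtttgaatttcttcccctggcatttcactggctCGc
Cntnap2 internal start: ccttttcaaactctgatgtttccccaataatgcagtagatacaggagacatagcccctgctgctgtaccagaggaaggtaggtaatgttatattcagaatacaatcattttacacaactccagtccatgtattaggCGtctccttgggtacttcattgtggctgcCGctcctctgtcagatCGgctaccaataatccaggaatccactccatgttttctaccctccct
Cntn1 upstream start: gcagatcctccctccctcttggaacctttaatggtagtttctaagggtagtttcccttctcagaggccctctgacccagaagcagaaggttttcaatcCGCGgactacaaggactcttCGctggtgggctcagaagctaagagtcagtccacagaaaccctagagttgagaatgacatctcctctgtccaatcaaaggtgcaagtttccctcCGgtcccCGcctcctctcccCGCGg
Nlgn2 start: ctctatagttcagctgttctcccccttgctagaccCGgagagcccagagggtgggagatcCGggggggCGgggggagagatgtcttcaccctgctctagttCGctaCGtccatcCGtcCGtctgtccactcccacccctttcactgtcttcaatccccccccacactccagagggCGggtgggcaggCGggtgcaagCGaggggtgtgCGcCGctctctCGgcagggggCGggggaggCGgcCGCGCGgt
The stretch before the full-length Cntnap2 start has 13 CpG and 59.6% G+C, and the stretch before the internal start has 3 CpG and 45.2% G+C. The Nlgn2 stretch has 18 CpG and 67.6% G+C, and the Cntn1 stretch 7 CpG and 53.6% G+C. Over the 32851 RefSeq mouse promoters of 250 bases before the start, the medians were 6 CpG and 52.4% G+C.

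The same 250-base promoters were searched on both strands for the half-site of the glucocorticoid response element, spelled AGAACA or TGTTCT, which 16.1% of all promoters hold. The table has 12 promoters for 6 of the 9 genes. It has none for the inner Nlgn2 start at chr11 position 69834849, which was not searched. The half-site was found in 2 of the 12. In Nlgn2 it began 236 bases before the outer start, and in Nrxn3 it began 99 bases before the start at chr12:88794504. The palindrome AGAACANNNTGTTC or its reverse complement, which contains 1 half-site and most of another, was in none of the 12 and in 10 promoters of the genome, or 0.0304%.

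Before the levels, the libraries were checked. Total counts per library were 4.26e+07 to 5.21e+07. Nr3c1, the deleted gene, stood at 66.6 to 108 CPM (gene counts scaled to the library's TMM-adjusted total) in the 6 AGR cKO libraries, against 199 to 237 CPM in the 6 Cre- libraries, a log2 fold change of -1.20 (edgeR adjusted p = 0.000203). Summed TPM (a level per unit of transcript length, scaled to the library) of 10 astrocyte markers was 18694 to 24253 over the 12 libraries, with all 10 detected in each. Of these 10, 3 were called between genotypes averaged over rearing, Aqp4 higher in AGR cKO (log2 fold change 0.50) and Gjb6 and Aldoc lower (-1.14 and -0.51), and the median was -0.09. For 12 neuron markers it was 142 to 193, of which Map2 alone made 106 to 140.1. Neurod6 was at 0 in 3 libraries and, of the oligodendrocyte list, Mog in 4 and Opalin in 10. Of 8 microglial and 6 endothelial markers, all 8 and all 6 had log2 fold changes below 0 for AGR cKO over Cre-, with medians of -1.13 and -1.05, and none was called. Of 4 ependymal markers all 4 were below 0 with a median of -0.78, and 3 were called lower, Tmem212, Ccdc153 and Rarres2, with summed levels of 105 to 173 TPM in AGR cKO and 147 to 269 TPM in Cre- libraries. All 6 mural and fibroblast markers were below 0, with a median of -0.31 and none called. Cre- control 1 had the highest microglial and endothelial sums of the 12 libraries, 1071 and 1246 TPM.

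Per unit of length, Ncam1 was the most abundant of the 9 genes and Nrxn3 the least. Mean TPM over the 12 libraries was 617 for Ncam1, 204 for Nrcam, 168 for Nrxn2, 78.9 for Nlgn3 and 77.0 for Nlgn2. It was 19.7 for Cntnap2, 18.1 for Nlgn1, 11.5 for Cntn1 and 7.54 for Nrxn3. Neighbours in this order overlapped in TPM over the 12 libraries, except that the lowest Ncam1 library (538 TPM) stood above the highest Nrcam library (253 TPM), the lowest Nrxn2 library (143 TPM) above the highest Nlgn3 library (95.0 TPM), and the lowest Nlgn2 library (61.9 TPM) above the highest Cntnap2 library (34.0 TPM). The lower end of the order differed between genotypes. In AGR cKO libraries Cntnap2 averaged 25.6 ± 6.85 TPM and Cntn1 6.88 ± 1.52 TPM, and in Cre- libraries Cntnap2 averaged 13.7 ± 2.47 TPM and Cntn1 16.1 ± 3.67 TPM (SD, n = 6 each). Cntn1 was thus above Cntnap2 on average in Cre- astrocytes, where their ranges overlapped, and below it in AGR cKO astrocytes, where they did not.

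**Figure D1:**
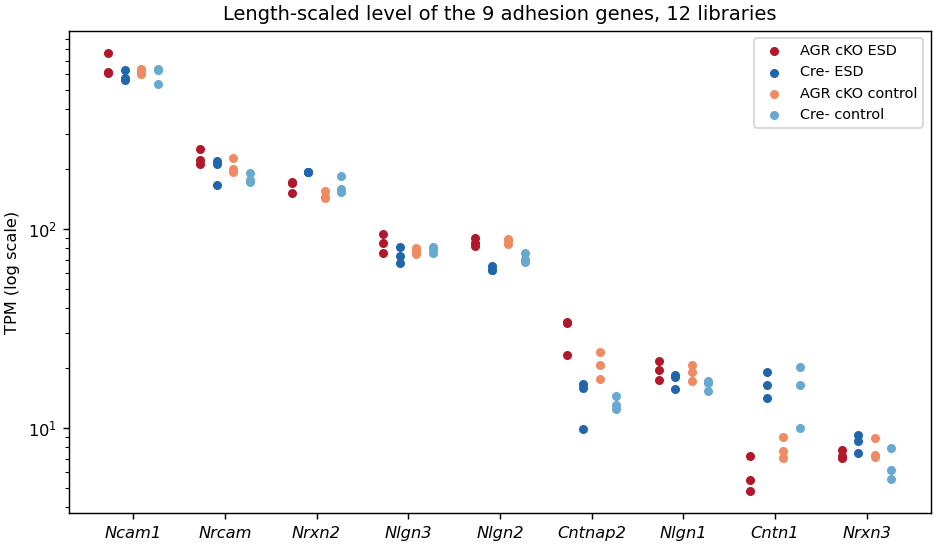
TPM (length-scaled level, log axis) of each of the 9 genes in the 12 libraries, with 1 point per library and genes in order of mean level. Ncam1 lies at the top with a mean of 617 TPM and Nrxn3 at the bottom with 7.54 TPM, and the points of Nlgn2, Cntn1 and Cntnap2 separate by genotype.

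The genes as annotated are long. Their median span is 291 kb, against 7.31 kb for all genes in the table, and 7 of the 9 span more than 100 kb, as do 5.99% of all genes. Cntnap2 spans 2241 kb and Nrxn3 1612 kb, while Nlgn2 spans 14.7 kb and Nlgn3 22.2 kb. All 9 spans equal those of RefSeq for build GRCm38.p6.

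Between the genotypes, averaged over control and ESD pups, 3 of the 9 genes differed. Nlgn2 and Cntnap2 were higher and Cntn1 was lower in AGR cKO astrocytes, and each of these 3 showed no overlap between the 6 AGR cKO and the 6 Cre- libraries. Over all 19163 genes tested, 3.49% were called at an edgeR adjusted p under 0.05, 1.55% higher and 1.94% lower, and 2.77% showed no overlap. Among the 9 genes, 6 had log2 fold changes above 0 and 3 below, with a median of 0.10, against a median of -0.00 over all genes. Astrocyte preparations are bulk samples, in which fewer cells of a type and less RNA per cell cannot be told apart.

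**Figure D2:**
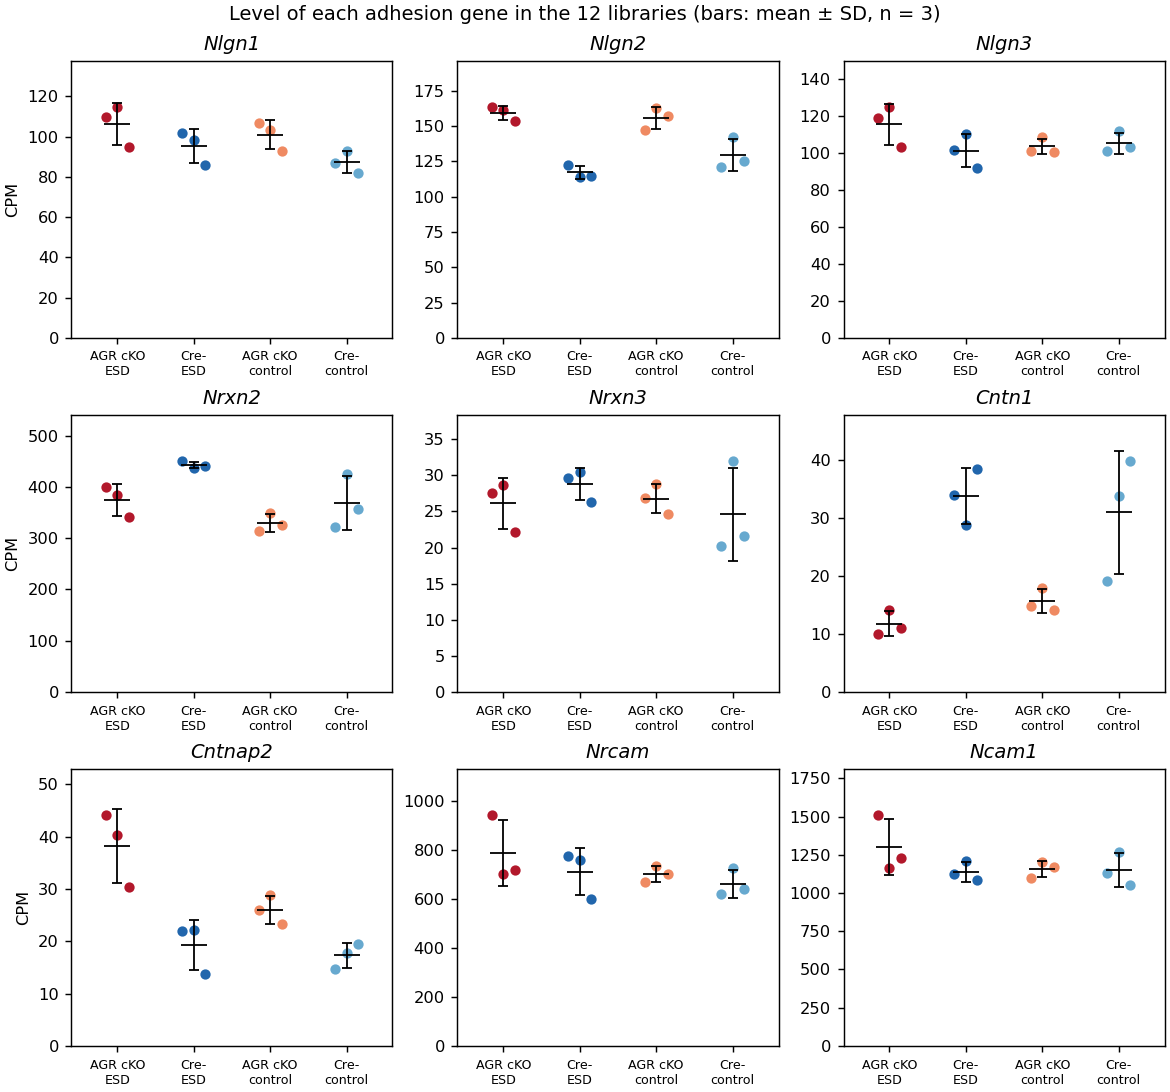
Level of each of the 9 adhesion genes in CPM (linear axis from 0), with 1 point per library, the mean as a horizontal line and bars of 1 SD (n = 3) for AGR cKO ESD, Cre- ESD, AGR cKO control and Cre- control. Nlgn2 and Cntnap2 lie higher and Cntn1 lower in all 6 AGR cKO libraries than in any Cre- library, and the other 6 genes overlap between genotypes.

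Nlgn1 (chr3:25421808-26332866, minus strand) encodes the neuroligin best known from excitatory synapses. It stood at 109.8, 115 and 94.8 CPM in AGR cKO ESD, 107, 103 and 93.0 CPM in AGR cKO control, 102, 98.3 and 85.7 CPM in Cre- ESD, and 87.1, 92.8 and 82.1 CPM in Cre- control libraries. The ranges of the genotypes overlapped. Its log2 fold change of AGR cKO over Cre- was 0.18 ± 0.07 (SE), short of the threshold at an edgeR adjusted p of 0.151. The 95% interval ran from 0.03 to 0.34.

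Nlgn2 (chr11:69823123-69837784, minus strand) encodes the neuroligin of inhibitory synapses. It stood at 163, 161 and 154 CPM in AGR cKO ESD and 147, 163 and 157 CPM in AGR cKO control libraries. In Cre- libraries it stood at 122, 114 and 115 CPM under ESD and at 121, 143 and 125 CPM in control. All 6 AGR cKO libraries were above all 6 Cre- libraries, the nearest pair being AGR cKO control 1 and Cre- control 2. Nlgn2 rose by a log2 fold change of 0.36 ± 0.05 (SE), or 1.28-fold, at an edgeR adjusted p of 0.00762. The 2 groups within each genotype overlapped.

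Nlgn3 (chrX:101299179-101321350, plus strand) encodes a neuroligin found at both excitatory and inhibitory synapses. Its 6 AGR cKO libraries stood at 101 to 125 CPM, against 92.2 to 112 CPM in the 6 Cre- libraries. The 2 ranges overlapped over most of their length. The log2 fold change was 0.08 ± 0.06 (SE, edgeR adjusted p = 0.516), with a 95% interval of -0.06 to 0.23. Of the 3 neuroligins, Nlgn2 alone was called in this comparison, but the neuroligins' fold changes were not tested against each other.

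Nrxn2 (chr19:6418756-6533217, plus strand) and Nrxn3 (chr12:88722701-90334935, plus strand) encode neurexins, the presynaptic receptors of neuroligins. Nrxn2 stood at 399.5, 384 and 340.4 CPM in AGR cKO ESD, 314, 349 and 327 CPM in AGR cKO control, 450.2, 438 and 441 CPM in Cre- ESD, and 323, 426 and 357 CPM in Cre- control libraries. Cre- ESD was the highest group, above all 3 AGR cKO ESD libraries, while the control groups overlapped. Its log2 fold change of AGR cKO over Cre- was -0.20 ± 0.07 (SE, edgeR adjusted p = 0.144). Nrxn3 stood at 22.1 to 28.8 CPM in AGR cKO and 20.3 to 31.9 CPM in Cre- libraries, with a log2 fold change of -0.01 ± 0.11 (SE, edgeR adjusted p = 0.979). The AGR cKO range of Nrxn3 lay inside the Cre- range, and the sign of so small a value turned with the scale used: it was 0.03 on log2(TPM + 1).

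Cntn1 (chr15:92051152-92341967, plus strand) encodes contactin-1, an immunoglobulin-type adhesion protein anchored in the membrane by a lipid, which is found on neurons and cells of the oligodendrocyte lineage. It stood at 9.98, 14.2 and 11.1 CPM in AGR cKO ESD and 14.7, 17.9 and 14.2 CPM in AGR cKO control libraries. In Cre- libraries it stood at 34.0, 28.8 and 38.4 CPM under ESD and at 19.2, 33.8 and 39.7 CPM in control. The highest AGR cKO library was just under the lowest Cre- library, Cre- control 1, which stood apart from its 2 replicates. Cntn1 fell by 1.25 ± 0.17 (SE) on the log2 scale, to 0.419-fold, at an edgeR adjusted p of 0.00587. Without Cre- control 1 the adjusted p was 0.000604 and the log2 fold change -1.38.

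Cntnap2 (chr6:45060061-47301393, plus strand) encodes the contactin-associated protein known from the juxtaparanodes of myelinated axons, where it helps to cluster potassium channels. It stood at 44.1, 40.3 and 30.3 CPM in AGR cKO ESD and 25.9, 28.8 and 23.3 CPM in AGR cKO control libraries. In Cre- libraries it stood at 21.9, 22.2 and 13.8 CPM under ESD and at 14.8, 17.8 and 19.5 CPM in control. Every AGR cKO library was above every Cre- library, and every AGR cKO ESD library above every AGR cKO control library. Cntnap2 rose by a log2 fold change of 0.79 ± 0.14 (SE), or 1.72-fold, at an edgeR adjusted p of 0.0127. Leaving out AGR cKO control 2 brought the adjusted p to 0.0501, just past the threshold.

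Nrcam (chr12:44328786-44605194, plus strand), an adhesion protein of the L1 family found at nodes of Ranvier, and Ncam1 (chr9:49502129-49799393, minus strand), the neural cell adhesion molecule that carries polysialic acid, did not pass the threshold. Nrcam stood at 939.9, 702 and 715 CPM in AGR cKO ESD and 669 to 735 CPM in AGR cKO control, against 600.4 to 772 CPM in Cre- ESD and 618 to 724 CPM in Cre- control libraries. Ncam1 stood at 1508, 1166 and 1226 CPM in AGR cKO ESD and 1097 to 1202 CPM in AGR cKO control, against 1083 to 1211 CPM in Cre- ESD and 1055 to 1271 CPM in Cre- control libraries. AGR cKO ESD 1 was the highest of the 12 libraries for both genes, and without it the remaining AGR cKO libraries lay within the Cre- range of each gene. The log2 fold changes of AGR cKO over Cre- were 0.12 ± 0.09 for Nrcam and 0.10 ± 0.08 for Ncam1 (SE, edgeR adjusted p = 0.542 and 0.540).

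**Figure D3:**
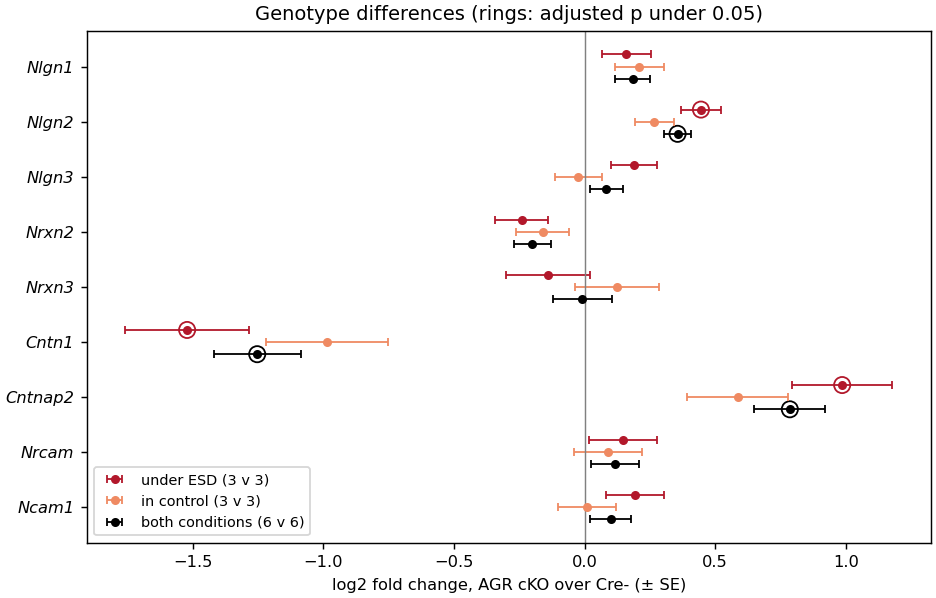
log2 fold change of AGR cKO over Cre- astrocytes (points, with bars of 1 SE) for each gene under ESD, in control pups and averaged over both, where rings mark an edgeR adjusted p under 0.05. Nlgn2, Cntn1 and Cntnap2 are ringed under ESD and in the average, at 0.36, -1.25 and 0.79 in the average, and no gene is ringed in control pups.

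Under ESD alone the same 3 genes were called. Nlgn2 rose in AGR cKO ESD over Cre- ESD astrocytes by a log2 fold change of 0.45 ± 0.08 (edgeR adjusted p = 0.0310). Cntnap2 rose by 0.99 ± 0.19 (edgeR adjusted p = 0.0424) and Cntn1 fell by 1.52 ± 0.24 on the log2 scale (SE, edgeR adjusted p = 0.0240). These calls stand beside 1.04% of all genes tested. In this comparison 10 of 12 neuron markers had log2 fold changes below 0, with a median of -0.49. Of 9 oligodendrocyte precursor markers 6 were below 0, 4 of them without overlap, and the median of the 9 was -0.69. The other 3 precursor markers were above 0, 2 of them without overlap, and 1 was called higher. Groups of 3 showed no overlap for Nlgn2, Cntnap2, Cntn1 and Nrxn2, and 19.9% of all genes did likewise. Nrxn2 was lower in all 3 AGR cKO ESD libraries, with a log2 fold change of -0.24 ± 0.10 (SE, edgeR adjusted p = 0.282). Leaving out any 1 library other than Cre- control 1 ended at least 1 of the 3 calls. Over the 12 such fits the adjusted p ran from 0.0230 to 0.0980 for Nlgn2, from 0.00679 to 0.0980 for Cntn1 and from 0.0325 to 0.144 for Cntnap2, with every direction kept, and with only the 6 ESD libraries fitted none of the 3 was called.

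In control pups, without separation, none of the 9 genes passed the threshold, and over all genes 0.0157% did, or 3 genes. At an unadjusted p under 0.05 there were 4 of the 9, and 10.2% of all genes. Nlgn2 had a log2 fold change of 0.27 ± 0.08 (edgeR adjusted p = 0.268), Cntnap2 of 0.59 ± 0.19 (edgeR adjusted p = 0.324), Cntn1 of -0.99 ± 0.23 (edgeR adjusted p = 0.235) and Nlgn1 of 0.21 ± 0.09 (SE, edgeR adjusted p = 0.482). The same 4 genes showed no overlap between the 3 AGR cKO control and the 3 Cre- control libraries, as did 16.9% of all genes. All 12 neuron markers had log2 fold changes above 0 in control pups, 7 of them without overlap and none called, with a median of 0.48. DESeq2 called Cntn1 here, with an adjusted p of 0.00811, and no other member. A genotype difference called under ESD and not in control pups is not thereby shown to depend on ESD, and its test is the interaction.

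That interaction was the stress difference in AGR cKO minus the stress difference in Cre- astrocytes. It was 0.40 ± 0.27 for Cntnap2, -0.54 ± 0.33 for Cntn1 and 0.18 ± 0.11 for Nlgn2 on the log2 scale (SE), each with an edgeR adjusted p of 0.999. The 95% intervals ran from -0.22 to 1.02 for Cntnap2, from -1.29 to 0.22 for Cntn1 and from -0.07 to 0.42 for Nlgn2. No member had an unadjusted p under 0.05, as 4.49% of all genes did. No gene in the table was called by edgeR in the interaction (0%), where DESeq2 called 9 genes and no member.

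Separation itself gave no called member and no called gene by edgeR (0%) in either genotype or averaged over both. Averaged over genotype, 7 of the 9 genes had log2 fold changes of ESD over control above 0 and 2 below, with a median of 0.10, against -0.01 over all genes. Nrxn2 had 0.23 ± 0.07 (edgeR adjusted p = 0.438) and Cntnap2 0.36 ± 0.14 (SE, edgeR adjusted p = 0.451), and these 2 were the members with an unadjusted p under 0.05, beside 10.4% of all genes. DESeq2 called 38 genes in this comparison, 26 within Cre- and 23 within AGR cKO astrocytes, and no member in any of them.

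**Figure D4:**
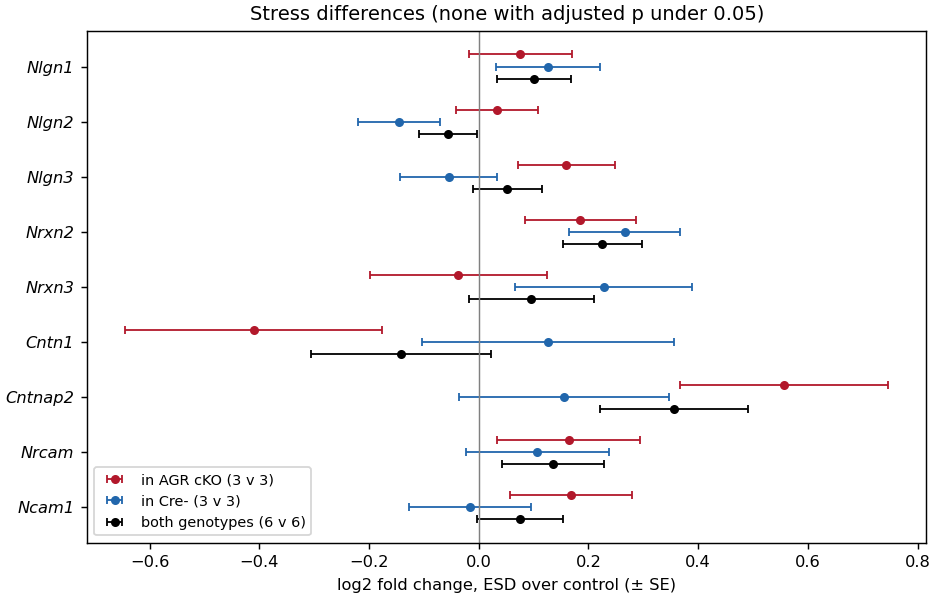
log2 fold change of ESD over control (points, with bars of 1 SE) for each gene within AGR cKO, within Cre- and averaged over both genotypes, with no adjusted p under 0.05. The points furthest from 0 are Cntnap2 at 0.56 and Cntn1 at -0.41 within AGR cKO astrocytes.

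Within Cre- astrocytes Nrxn2 averaged 443 ± 6.44 CPM under ESD and 368 ± 52.5 CPM in control pups (SD, n = 3 each). All 3 ESD libraries were above all 3 control libraries, as in 11.1% of all genes without overlap in either direction. The log2 fold change was 0.27 ± 0.10 (SE, edgeR adjusted p = 0.657), and Nrxn2 was the 1 member with an unadjusted p under 0.05 here, beside 7.19% of all genes. Cntn1 averaged 33.7 ± 4.80 CPM in Cre- ESD and 30.9 ± 10.6 CPM in Cre- control libraries (SD, n = 3 each), and its log2 fold change of 0.13 turned to -0.13 without Cre- control 1. Nlgn2 was at 117 ± 4.55 CPM in Cre- ESD and 129.6 ± 11.4 CPM in Cre- control libraries, with a log2 fold change of -0.15 ± 0.08 (SE, edgeR adjusted p = 0.708).

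Within AGR cKO astrocytes Cntnap2 averaged 38.2 ± 7.10 CPM under ESD and 26.0 ± 2.75 CPM in control pups (SD, n = 3 each), with no overlap, as in 16.6% of all genes. Its log2 fold change was 0.56 ± 0.19 (SE, edgeR adjusted p = 0.647), with a 95% interval of 0.12 to 0.99, and it was the 1 member with an unadjusted p under 0.05 here, beside 7.58% of all genes. Cntn1 averaged 11.7 ± 2.17 CPM in AGR cKO ESD and 15.6 ± 2.04 CPM in AGR cKO control libraries, with overlap, and a log2 fold change of -0.41 ± 0.23 (SE, edgeR adjusted p = 0.744). Markers of other cells differed as well, with none called. Of 12 neuron markers, 11 had log2 fold changes below 0, with a median of -0.82, and without Map2 the other 11 summed to 27.5 to 32.3 TPM in AGR cKO ESD and 44.8 to 58.9 TPM in AGR cKO control libraries. In Cre- ESD libraries these 11 summed to 34.0 to 46.7 TPM, and in Cre- control libraries to 30.4 to 39.9 TPM. Of 6 mural and fibroblast markers 5 were below 0 in AGR cKO ESD against AGR cKO control, 4 of them without overlap, with a median of -0.70, and of 9 oligodendrocyte precursor markers 7 were below 0, with a median of -0.37. The part of these cells in the Cntn1 and Cntnap2 values was not tested.

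Put in order by mean CPM, the 4 groups ran for Cntnap2 from AGR cKO ESD through AGR cKO control and Cre- ESD to Cre- control, with the first 2 steps free of overlap and the last not, a 2.21-fold range. For Cntn1 they ran from Cre- ESD through Cre- control and AGR cKO control to AGR cKO ESD, a 2.87-fold range, with no overlap in the middle step alone. For Nlgn2 AGR cKO ESD and AGR cKO control stood above Cre- control and Cre- ESD, a 1.36-fold range, again with no overlap in the middle step alone. For Nrxn2 the highest group, Cre- ESD, stood free of the next, AGR cKO ESD, over a 1.34-fold range. For the other 5 genes each group overlapped the next, over ranges of 1.14-fold to 1.22-fold.

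The deposited transcript table splits each gene into its annotated RNAs, and 9 genes had 172 transcripts, of which 105 were tested. None of these was called by edgeR between genotypes averaged over rearing, where 0.0143% of 62862 transcripts were called. There were 16 member transcripts with an unadjusted p under 0.05, beside 7.82% of all transcripts tested, and limma-trend on log2(TPM + 1) called none. The summed TPM of transcripts that begin within 1 kb of each other was then compared for the 3 called genes, as a description with no test, since it was chosen after the gene values were seen. These TPM are estimates from short reads, which assign shared exons between overlapping RNAs.

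Most Cntnap2 RNA in these astrocytes was assigned to the internal start, at chr6 positions 47244374 to 47244396, whose upstream sequence is printed above. The 2 transcripts from this start made 91.1% of Cntnap2 TPM on average over the 12 libraries. The RefSeq form from this start that was matched to GENCODE vM21 has 4 exons, 3 of which begin where exons of the 24-exon full-length form begin. Its coding sequence there has 108 residues, against 1332 for the full-length form. This form averaged 9.60 of the 18.1 TPM from the internal start, and the exons and coding length of the other transcript are not given here. Internal-start RNA stood at 32.8, 33.6 and 21.9 TPM in AGR cKO ESD and 19.1, 19.3 and 16.1 TPM in AGR cKO control libraries. In Cre- libraries it stood at 14.2, 14.99 and 8.58 TPM under ESD and at 11.9, 11.7 and 12.9 TPM in control. All 6 AGR cKO libraries were above all 6 Cre- libraries. RNA from the full-length start, at position 45060061, averaged 1.15 ± 0.481 TPM in AGR cKO and 1.35 ± 0.426 TPM in Cre- libraries (SD, n = 6 each), and the genotypes overlapped. The mean difference, AGR cKO minus Cre-, was 11.4 TPM from the internal start and -0.20 TPM from the full-length start. Another start, at position 47045027, was at 3.75 TPM in AGR cKO control 2, at 0.107 and 0.150 TPM in AGR cKO ESD 1 and 3, and at 0 in the other 9 libraries.

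**Figure D5:**
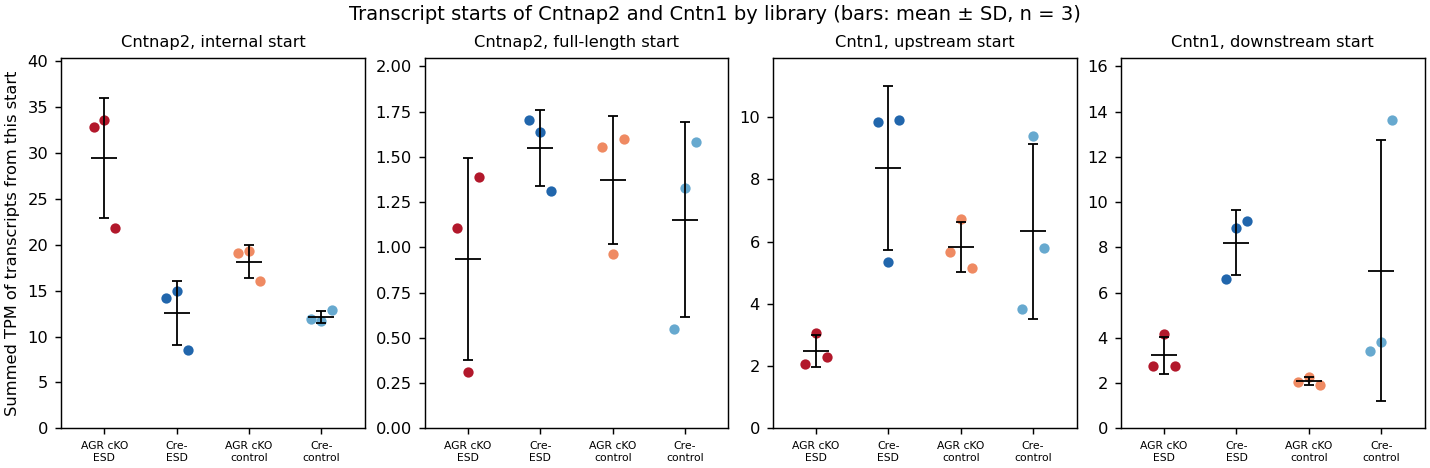
Summed TPM of transcripts from the internal and the full-length start of Cntnap2 and from the upstream and the downstream start of Cntn1 (linear axes from 0, which differ between panels), with 1 point per library and the mean ± SD (n = 3) of each group. Internal-start Cntnap2 RNA lies at 16.1 TPM or more in AGR cKO and 14.99 TPM or less in Cre- libraries, and the other 3 panels overlap between genotypes.

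Cntn1 RNA was mostly divided between an upstream start, at chr15 positions 92051152 to 92051203, and a downstream start, at 92160681 to 92161357. From the upstream start AGR cKO libraries averaged 4.16 ± 1.93 TPM and Cre- libraries 7.34 ± 2.68 TPM (SD, n = 6 each). From the downstream start AGR cKO libraries averaged 2.65 ± 0.826 TPM and Cre- libraries 7.59 ± 3.83 TPM (SD, n = 6 each). Both were lower on average in AGR cKO astrocytes, to 0.566-fold and 0.349-fold, and both overlapped between genotypes. Upstream RNA was at 2.07, 3.07 and 2.30 TPM in AGR cKO ESD and at 5.65, 6.71 and 5.13 TPM in AGR cKO control libraries. Downstream RNA was at 2.75, 4.18 and 2.74 TPM in AGR cKO ESD and at 2.05, 2.27 and 1.92 TPM in AGR cKO control libraries. Within AGR cKO astrocytes the upstream values were thus lower and the downstream values higher under ESD than in control pups, with no overlap in either. For whole genes in CPM, 16.6% showed no overlap in this comparison. In Cre- libraries upstream RNA was at 9.84, 5.33 and 9.91 TPM under ESD and at 3.83, 9.37 and 5.78 TPM in control. Downstream RNA was there at 6.58, 8.87 and 9.19 TPM under ESD and at 3.44, 3.83 and 13.6 TPM in control. Both overlapped between ESD and control. Another start, at 92128128, was at 0.424 TPM in AGR cKO ESD 3 and at 2.80, 3.25 and 0.929 TPM in Cre- control libraries, and at 0 in the other 8. The RefSeq forms matched to GENCODE vM21 from the upstream and downstream starts both encode 1020 residues.

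Nlgn2 RNA came from a start at chr11 positions 69837134 to 69837784 and from 1 at 69834849. AGR cKO libraries averaged 47.8 ± 7.03 TPM from the first start and 38.7 ± 8.30 TPM from the second. Cre- libraries averaged 36.3 ± 5.63 TPM from the first and 31.1 ± 5.17 TPM from the second (SD, n = 6 each). Both means were higher in AGR cKO astrocytes, and neither start separated the genotypes without overlap. The RefSeq forms from both encode 836 residues.

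Ncam1 and Nrcam RNAs differed at their ends. Ncam1 transcripts that end at chr9 positions 49515129 to 49515139, whose main RefSeq form encodes the lipid-anchored protein of 725 residues, made 68.5% ± 1.83 of Ncam1 TPM in AGR cKO and 67.3% ± 1.57 in Cre- libraries (SD, n = 6 each). Those that end at 49502129 to 49502138, which encode proteins that span the membrane, made up nearly all of the rest, at 31.5% ± 1.83 in AGR cKO and 32.7% ± 1.57 in Cre- libraries. The GENCODE vM21 matches of their RefSeq forms have 848 or 849 residues. RefSeq variants 1 and 3 share the match of 848 residues, so the length of each is not settled here. The shares differed by less than the spread between libraries. Nrcam transcripts that end at chr12 position 44601846 made 28.4% ± 13.4 of Nrcam TPM in AGR cKO and 10.3% ± 9.93 in Cre- libraries (SD, n = 6 each), with ranges of 14.6% to 44.2% and 2.08% to 26.6% that overlapped. In Cre- control libraries this share was 2.08% to 3.88%, lower than in any other library. The shares of ends are a description with no test, and rest on the same short-read estimates as the starts.

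Partners of these proteins were compared between genotypes averaged over rearing, where 3.49% of all genes were called. Of 28 neurexin and neuroligin partners 26 were tested, 20 with log2 fold changes above 0 and 6 below, with a median of 0.12. The 1 called was C1ql3, a secreted C1q-like protein of synapses, which rose by 0.88 ± 0.14 (SE, edgeR adjusted p = 0.0102), at 6.90 to 10.3 CPM in AGR cKO and 2.46 to 7.17 CPM in Cre- libraries. The ranges of C1ql3 overlapped.

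Of 12 genes listed as intracellular scaffolds, 8 had log2 fold changes above 0 and 4 below, with a median of 0.03, and 4 were called. Apba1, an adaptor that joins Cask, rose by 0.52 ± 0.05 (SE, edgeR adjusted p = 0.00270), at 48.7 to 55.0 CPM in AGR cKO and 31.3 to 37.5 CPM in Cre- libraries, without overlap. Cask, a kinase-like scaffold that binds the tails of neurexins, rose by 0.27 ± 0.05 (SE, edgeR adjusted p = 0.0237). Gphn, the gephyrin scaffold of inhibitory synapses, to which neuroligin 2 binds, fell by 0.36 ± 0.08 on the log2 scale (SE, edgeR adjusted p = 0.0336). Magi2, a scaffold that binds neuroligins, fell by 0.48 ± 0.12 on the log2 scale (SE, edgeR adjusted p = 0.0463). Gphn was thus lower in the astrocytes in which Nlgn2 was higher, with 49.7 to 60.7 CPM in AGR cKO and 61.9 to 83.2 CPM in Cre- libraries.

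Of 20 relatives and partners of the contactins, contactin-associated proteins and the L1 family 17 were tested, 9 above 0 and 8 below, with a median of 0.01. Ank3, the ankyrin that anchors L1-family proteins at the axon initial segment, was the 1 called, falling by 0.61 ± 0.15 on the log2 scale (SE, edgeR adjusted p = 0.0480). Of 6 relatives, modifiers and partners of Ncam1 none was called, with a median of 0.04. Under ESD alone C1ql3 rose by 1.11 ± 0.20 (edgeR adjusted p = 0.0353) and Apba1 by 0.59 ± 0.07 (SE, edgeR adjusted p = 0.0164), and no other gene of the 4 lists was called. In control pups edgeR called none of the 4 lists' genes. In the order given here, 3, 4, 1 and 2 genes of the lists had an unadjusted p under 0.05, beside 10.2% of all genes.

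Cntn1 and Cntnap2 are also made by neurons, and Cntn1 by the oligodendrocyte lineage, so the markers of these cells are given beside them. Over both rearing conditions 7 of 12 neuron markers had log2 fold changes of AGR cKO over Cre- above 0, with a median of 0.07 and none called, while the medians under ESD and in control pups, given above, had opposite signs. Without Map2 they summed to 27.5 to 58.9 TPM in AGR cKO and 30.4 to 46.7 TPM in Cre- libraries. Of 9 oligodendrocyte precursor markers 3 were above 0 and 6 below, with a median of -0.41. Vcan was the 1 called of these, higher in AGR cKO by 1.21 ± 0.13 (SE), and without it the other 8 summed to 264 to 349 TPM in AGR cKO and 236 to 329 TPM in Cre- libraries. Of these 8, Cspg4 and Olig1 had the most reads, with means of 9666 and 5442 counts over the 12 libraries. Pdgfra and Gpr17 had means of 985 and 389 counts, so the sum can hide the less abundant markers. In unscaled counts Pdgfra averaged 774 in AGR cKO and 1196 in Cre- libraries, and Gpr17 326.5 and 451. Under ESD the genotypes did not overlap in the counts of either gene. Olig1 and Olig2 went the other way, with means of 5949 and 2002 counts in AGR cKO and 4936 and 1503 in Cre- libraries. Of 5 mature oligodendrocyte markers tested, of 7, none was called, with a median of 0.07. The part of these cells in the Cntn1 and Cntnap2 values was not tested.

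The genes whose pattern over the 12 libraries was most like that of each called gene were taken among 11213 tested genes of at least 5 CPM, by the root mean square difference of centred log2 CPM. For Nlgn2 they were Grtp1, Iqsec1 and Ltbp3, with differences of 0.05, 0.06 and 0.07, against a median of 0.23 over all candidates. For Cntn1 they were Nell2, Tfcp2l1 and Prodh, at 0.26, 0.30 and 0.31, against a median of 0.72. For Cntnap2 they were Efhd1, B3gat2 and Eepd1, at 0.18, 0.19 and 0.20, against a median of 0.50. Prodh, a mitochondrial enzyme of proline breakdown, stood at 80.6 to 110.6 CPM in AGR cKO and 127 to 271 CPM in Cre- libraries, on the same side as Cntn1. It was picked by likeness to Cntn1 over these same 12 libraries, so the shared side follows from the choice.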

How the data were processed

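Polyadenylated RNA of purified cortical astrocytes was sequenced in 12 libraries. The authors deposited whole-number read counts per gene and per transcript, and the deposited tables also give TPM. Build mm10 and the tools StringTie 1.3.4b, HISAT2 2.1.0, Bowtie2, HISAT, DESeq2 and Trimmomatic stand in the submitters' processing notes, with no roles. The way counts were made whole and any use of strand in counting are not given in the sources used here. Reads of overlapping or antisense genes may therefore not have been kept apart. Per the labels' protocols, astrocytes were taken by immunopanning and magnetic beads, and stranded mRNA libraries were made from RNA of high integrity. Groups follow the sample titles, since the genotype labels carry numbers that count up with the replicate. Column names with cre_M and cre_P were read as Cre minus and Cre plus, which Nr3c1 matched in all 12 libraries. The labels do not say that replicates are separate animals, so p-values measure the spread between these libraries, which may be technical.

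Gene counts were filtered with filterByExpr, scaled by TMM and fitted with edgeR 4.0.16 (R 4.3.3), with 1 mean per group over all 12 libraries and 8 degrees of freedom left (common biological coefficient of variation 0.1945). A gene was called at a two-sided Benjamini-Hochberg adjusted p under 0.05 over 19163 genes. The standard error is the log2 fold change over the square root of F. An exact two-sided permutation test of 3 libraries against 3 cannot go below 0.1, so no single gene was tested alone. Transcript counts were fitted in the same way. The fit was tested on simulated data. The members, the partner and marker lists and the tests were chosen with earlier results of these data known. The text names the 9 members, Nr3c1, every partner called, and the 3 genes most like each called member. Vcan, Map2 and the other single markers were named after their values were seen. No 2 libraries of a group shared identical counts in more than 1.57% of tested genes. Sequences are RefSeq's for GRCm38.p6, coordinates are those of the deposited mm10 tables, and residue counts come from GENCODE vM21.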

Additional observations from a re-analysis of the deposited data

How the results depend on the processing

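Settings tried were DESeq2 1.42.0, median-of-ratios scaling, no filter on low counts, a filter of 1 CPM in 6 libraries, limma-trend 3.58.1 on log2(TPM + 1) and log2(TPM + 0.1), a replicate block, only the groups compared, and each library left out. Of 1233 values for 63 log2 fold changes, 1174 kept direction and side of the threshold, 28 lost the call, 2 gained it and 29 changed sign, all of these 29 in values that were not called.

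Genotype calls averaged over rearing held for Nlgn2 and Cntn1 under all 7 other settings and 12 left-out libraries, with adjusted p of at most 0.0328 and 0.0213, and for Cntnap2 in all but the fit without AGR cKO control 2. The members called there numbered 2 to 3 with a library left out, and genes called 668, with 151 to 932 over left-out libraries and 506 to 1729 (DESeq2) otherwise. Under ESD the members called fell to 0 with only the groups compared and ranged from 0 to 3 with a library left out, and Cntnap2 missed the threshold with no filter (adjusted p = 0.0544). Genes called under ESD were 200, with 2 to 280 over left-out libraries, 0 with only the groups compared, 100 with no filter and 817 by DESeq2. In control pups DESeq2 called 1 member, Cntn1, and 273 genes, against 3. The cause of these shifts was not tested.

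Signs turned for Nrxn3 between genotypes (0.029 on log2(TPM + 1), 0.035 on log2(TPM + 0.1), -0.069 to 0.11 with a library left out), for Ncam1 under stress in Cre- (0.0013 with no filter, -0.075 to 0.067 with a library left out) and for Nlgn2 under stress in AGR cKO (-0.016 on both TPM scales, -0.0060 to 0.067 with a library left out). With a library left out they also turned for Nrcam between genotypes under ESD (-0.00083 to 0.22), between genotypes in control for Nlgn3 (-0.058 to 0.025) and Ncam1 (-0.051 to 0.089), under stress in Cre- for Nlgn3 (-0.12 to 0.0094) and Cntn1 (-0.13 to 0.35), under stress in AGR cKO for Nrxn3 (-0.11 to 0.062), and in the interaction for Nlgn1 (-0.12 to 0.013), Nrxn2 (-0.20 to 0.0061) and Nrcam (-0.10 to 0.13).

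The replicate block gave 4 members called between genotypes averaged over rearing, Nlgn1 with the other 3 (adjusted p = 0.0497), and 799 genes against 668. Same-numbered libraries correlated at -0.10 to 0.23 in their deviations from group means (median 0.038), with 7 of 18 pairs over 0.1. Differently numbered libraries correlated at -0.22 to 0.17 (median -0.003), with 4 of 36 pairs over 0.1. The main fit did not use the numbers, and whether they mark a shared source was not tested. Low counts limit Cntn1 most, at 487 to 1764 counts per library, and transcript values rest on shared exons.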

Other observations

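Within the members, the ratio of the highest to the lowest library in CPM was 3.98 for Cntn1 and 3.20 for Cntnap2, and between 1.35 and 1.58 for the other 7. Nlgn3 had the narrowest range of the 9 genes and 1 annotated transcript.

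Nrxn3 RNA came mostly from its outermost start, which made 84.5% of Nrxn3 TPM on average over the 12 libraries. In AGR cKO ESD this share was 61.5%, 95.7% and 28.4%, and in AGR cKO control 92.8% to 93.4%, against 82.7% to 99.2% in the 6 Cre- libraries. AGR cKO ESD 1 and 3 were the lowest libraries of the 12, at 4.78 and 2.01 TPM from this start, while Nrxn3 as a whole was at 7.76 and 7.09 TPM in them. In AGR cKO ESD 3, 71.3% (5.06 TPM) was assigned to starts at chr12 positions 88724337 to 88725742, and in AGR cKO ESD 1, 36.2% (2.81 TPM) to the start at 88794504.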
